A study of Rattus norvegicus with 4 samples.

Results

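The genes described here encode the machinery of actin filament turnover: both cytoplasmic actins, the proteins that bind actin monomers or cut filaments, the Arp2/3 complex with its WAVE and N-WASP activators, formins and Ena/VASP proteins, capping protein, and proteins that lie along or bundle filaments. They are 44 genes chosen by name and role, and all 44 were found among the 18755 genes listed for each library. A gene was tested when its FPKM (reads per kilobase of gene model, scaled to the summed count of the library) was at least 1 in at least 1 library. This left 12394 genes and all 44 members, of which Diaph2 passed only through NL-SFMA. RNA was measured in primary cortical cells from SD (Sprague Dawley) rats of embryonic day 16, kept for 24 h in Neurobasal medium with B27 on a hydrogel. There were 4 groups with 1 library each, namely cells on NL-SFMA, N-SFMA, L-SFMA and SFMA hydrogels. The embryonic day, medium, time and seeding (100000 cells per well, 5 parallel wells per hydrogel) were shared by all groups. The labels explain neither the letters N and L nor whether wells were pooled. From their names, NL-SFMA, N-SFMA and L-SFMA are called the modified hydrogels. In the treatment field of the labels, NL-SFMA appears as NL@SFMA and L-SFMA as L@SFMA. By its title, the series concerns hydrogels that carry cues for adhesion between cells and their use in regrowth of neural tissue.

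Actin monomers join filaments mainly at the barbed end and leave at the pointed end. Profilin and thymosins hold the pool of monomers, cofilins cut old filaments, and capping protein stops growth at barbed ends. The Arp2/3 complex starts a new branch on the side of a filament when a WAVE complex (downstream of Rac) or N-WASP (downstream of Cdc42) activates it, whereas formins and Ena/VASP proteins lengthen unbranched filaments. In young cortical neurons these proteins shape the growth cone, the motile tip of an axon or dendrite, with its branched lamellipodium and bundled filopodia.

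Summed counts per library lay between 14172205 on NL-SFMA and 17553098 on SFMA. Members held 2.37% of the reads on NL-SFMA, 2.84% on N-SFMA, 2.39% on L-SFMA, against 2.98% on SFMA, and 42 of the 44 members had at least 100 reads in every library. The libraries also differed in ways that touch every comparison here. Mitochondrially encoded genes took 5.89% of reads on NL-SFMA, 2.23% on N-SFMA, 2.33% on L-SFMA, against 2.68% on SFMA. The median gene model length, weighted by reads, was 3626 bases on NL-SFMA, 3278 on N-SFMA, 3438 on L-SFMA, against 2851 on SFMA, so a larger share of reads came from long genes in the NL-SFMA, N-SFMA and L-SFMA libraries. With 1 library per hydrogel there is no replicate spread and no test between hydrogels, and the intervals given below are exact 95% intervals for counting error only. In bulk RNA, fewer cells of a type and less RNA per cell cannot be told apart.

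Differences were first measured as log2 ratios of FPKM + 1, which understate the ratio of genes with low values, and a gene is called higher or lower when it passed 1.5-fold on this scale. On NL-SFMA against SFMA, 7 of 44 members were higher (15.9%) and 15 were lower (34.1%), while of all genes tested 21.6% were higher and 29.3% lower. Both shares were near those of all genes, and the members' median was -0.19 beside -0.10 for all genes tested. On N-SFMA against SFMA, 1 member was higher and 6 were lower (13.6%), beside 7.24% and 10.7% of all genes tested, with medians of -0.04 for the members and -0.02 for all genes. On L-SFMA against SFMA, 1 member was higher (2.27%) and 12 were lower (27.3%), beside 14.8% and 11.1% of all genes tested, with medians of -0.13 for the members and 0.05 for all genes. Past 2-fold, 3 members were higher and 9 lower on NL-SFMA (10.1% and 15.1% of all genes tested), 0 and 2 on N-SFMA (0.855% and 2.65%), and 0 and 3 on L-SFMA (3.32% and 3.04%). These 3 comparisons share the SFMA library. The counts over the whole set hide opposite differences in its role classes, which the plot of levels shows gene by gene.

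**Figure D1:**
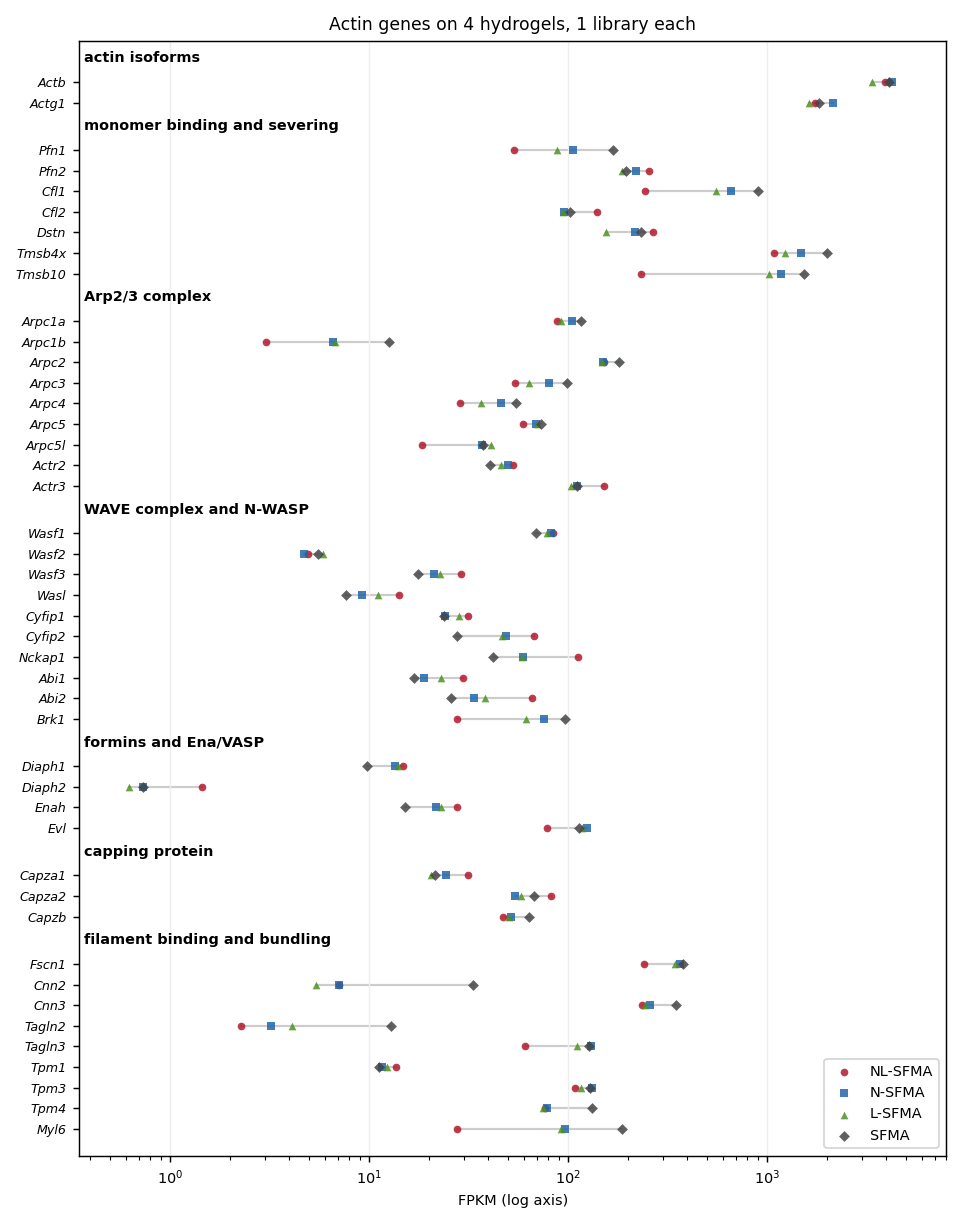
FPKM of the 44 members (log axis) on NL-SFMA (red circles), N-SFMA (blue squares), L-SFMA (green triangles) and SFMA (grey diamonds), grouped by role, with 1 library per hydrogel and a grey line over the range. On the lines of Cfl1, Tmsb10, Brk1 and Myl6, among others, the NL-SFMA point is at the left end (244, 233, 27.9 and 27.9 FPKM). On those of Cyfip2, Nckap1 and Abi2, among others, it is at the right end (67.4, 112 and 66.2 FPKM).

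The cytoplasmic actins themselves differed little. Actb, beta-actin, was at 3952 FPKM on NL-SFMA, 4266 on N-SFMA, 3390 on L-SFMA, against 4118 on SFMA. Actg1, gamma-actin, was at 1741 FPKM on NL-SFMA, 2156 on N-SFMA, 1629 on L-SFMA, against 1821 on SFMA. Both genes were highest on N-SFMA and lowest on L-SFMA, and neither passed 1.5-fold in any comparison with SFMA. Actb was 1.04 times lower on NL-SFMA than on SFMA (1.03 to 1.05) and Actg1 1.05 times lower, and the sign of both differences turned under the TMM or DESeq2 scaling. Actg1 per Actb was 0.440 on NL-SFMA, 0.505 on N-SFMA, 0.480 on L-SFMA, against 0.442 on SFMA. The proteins of these genes are nearly identical and their coding sequences similar. How many reads fit both genes was not measured, so the split of their reads carries an unknown error.

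Of the 7 genes for proteins that bind monomers or cut filaments, 4 were lower and 0 higher on NL-SFMA, 1 was lower on N-SFMA and 5 were lower on L-SFMA, each against SFMA. The lower shares were 57.1%, 14.3% and 71.4% in that order, beside 29.3%, 10.7% and 11.1% of all genes tested. Most of these genes are short, and short genes were lower in general, as described below. With the trend of all genes with length taken off, 3 were lower on NL-SFMA, 0 on N-SFMA and 2 on L-SFMA. These counts stand beside 18.9%, 6.78% and 7.46% of all genes tested, and 3 were then higher on NL-SFMA, beside 19.1%. Tmsb10, a beta-thymosin that sequesters actin monomers, was at 233 FPKM on NL-SFMA, 1179 on N-SFMA, 1024 on L-SFMA, against 1543 on SFMA. It was 6.63 times lower on NL-SFMA than on SFMA (6.44 to 6.83), against 1.31 times on N-SFMA (1.29 to 1.33) and 1.51 times on L-SFMA (1.48 to 1.53), so NL-SFMA stood apart from the other 3 libraries. Tmsb4x, the other thymosin of the set, was at 1089 FPKM on NL-SFMA, 1481 on N-SFMA, 1234 on L-SFMA, against 2013 on SFMA. Its order across the libraries was the same, but its difference on NL-SFMA was smaller, 1.85 times lower (1.82 to 1.88), and L-SFMA lay close to NL-SFMA.

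Cfl1, the main cofilin of non-muscle cells, which severs filaments, was at 244 FPKM on NL-SFMA, 660 on N-SFMA, 557 on L-SFMA, against 907 on SFMA. It was 3.72 times lower on NL-SFMA (3.64 to 3.80), 1.37 times on N-SFMA (1.35 to 1.40) and 1.63 times on L-SFMA (1.60 to 1.65). Pfn1, a profilin that feeds monomers to growing barbed ends, was at 53.6 FPKM on NL-SFMA, 106 on N-SFMA, 88.6 on L-SFMA, against 170 on SFMA. It was 3.17 times lower on NL-SFMA (2.98 to 3.37), 1.60 times on N-SFMA (1.53 to 1.68) and 1.92 times on L-SFMA (1.83 to 2.01). Both genes thus had the same order, SFMA highest, then N-SFMA, L-SFMA and NL-SFMA. The relatives of these genes did not follow them. Pfn2, the profilin that predominates in neurons, was at 258 FPKM on NL-SFMA, 222 on N-SFMA, 187 on L-SFMA, against 197 on SFMA. Cfl2, known as the muscle cofilin, was at 141 FPKM on NL-SFMA, 96.3 on N-SFMA, 94.5 on L-SFMA, against 103 on SFMA. Dstn, which encodes the cofilin relative ADF, was at 267 FPKM on NL-SFMA, 217 on N-SFMA, 156 on L-SFMA, against 235 on SFMA. All of these relatives were highest on NL-SFMA, and of their differences from SFMA only that of Dstn on L-SFMA passed 1.5-fold, at 1.51 times lower (1.45 to 1.57).

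Of the 9 genes of the Arp2/3 complex, 4 were lower on NL-SFMA, 1 on N-SFMA and 2 on L-SFMA, and 0 were higher. The lower shares were 44.4%, 11.1% and 22.2% in that order, beside 29.3%, 10.7% and 11.1% of all genes tested. The share on N-SFMA was thus near that of all genes. With the length trend of all genes taken off, 2 were lower on NL-SFMA, 1 on N-SFMA and 2 on L-SFMA. These counts stand beside 18.9%, 6.78% and 7.46% of all genes tested. Arpc3 (-0.31) and Arpc5l (-0.24) were then no longer past 1.5-fold on NL-SFMA. Arpc1b, an alternative form of the subunit encoded by Arpc1a, was at 3.04 FPKM on NL-SFMA, 6.65 on N-SFMA, 6.75 on L-SFMA, against 12.7 on SFMA. It was 4.18 times lower on NL-SFMA (3.44 to 5.13), 1.91 times on N-SFMA (1.66 to 2.21) and 1.88 times on L-SFMA (1.64 to 2.16). Arpc1a, the more abundant form in these cells, was at 88.6 FPKM on NL-SFMA, 105 on N-SFMA, 92.4 on L-SFMA, against 116 on SFMA, a much narrower range. Arpc5l, an alternative to Arpc5, was at 18.6 FPKM on NL-SFMA, 36.9 on N-SFMA, 41.1 on L-SFMA, against 37.7 on SFMA, so only the NL-SFMA library was low. A row for a pseudogene of Arpc5l held 28.7% as many reads as the gene on NL-SFMA, 12.6% on N-SFMA, 5.61% on L-SFMA, against 51.5% on SFMA. With those reads added, the log2 difference of Arpc5l on L-SFMA was -0.39 in place of 0.12, that on N-SFMA -0.45 in place of -0.03, and that on NL-SFMA -1.22 in place of -0.98, so the values of Arpc5l are uncertain.

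Arpc4 and Arpc3, core subunits with no alternative form among the members, were also lowest on NL-SFMA. Arpc4 was at 28.8 FPKM on NL-SFMA, 46.2 on N-SFMA, 36.6 on L-SFMA, against 54.9 on SFMA, and was 1.91 times lower on NL-SFMA (1.80 to 2.02). Arpc3 was at 54.5 FPKM on NL-SFMA, 80.8 on N-SFMA, 63.6 on L-SFMA, against 99.3 on SFMA, and was 1.82 times lower on NL-SFMA (1.72 to 1.94). The actin-related subunits went the other way on NL-SFMA. Actr2 was at 53.3 FPKM on NL-SFMA and 40.8 on SFMA, with N-SFMA and L-SFMA in between, and Actr3 was at 152 on NL-SFMA, 112 on N-SFMA, 104 on L-SFMA, against 112 on SFMA. Arpc2 and Arpc5 differed from SFMA by at most 1.22 times in any library. The subunits of this complex therefore did not differ as a block, and their FPKM summed to 611 on NL-SFMA, 656 on N-SFMA, 609 on L-SFMA, against 727 on SFMA.

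The activators of the complex were higher where several of its subunits were lower. Of the 10 genes of the WAVE complex and N-WASP, 6 were higher and 1 lower on NL-SFMA, 1 was higher on N-SFMA, and 1 was higher and 1 lower on L-SFMA. The higher shares were 60%, 10% and 10% in that order, beside 21.6%, 7.24% and 14.8% of all genes tested. The lower shares were 10%, 0% and 10%, beside 29.3%, 10.7% and 11.1%. Nckap1, a scaffold subunit of WAVE, was at 112 FPKM on NL-SFMA, 59.6 on N-SFMA, 58.6 on L-SFMA, against 42.3 on SFMA. It was 2.65 times higher on NL-SFMA (2.55 to 2.75), and N-SFMA and L-SFMA lay between NL-SFMA and SFMA. Abi2, an adaptor subunit, was at 66.2 FPKM on NL-SFMA, 33.8 on N-SFMA, 38.5 on L-SFMA, against 25.8 on SFMA, 2.56 times higher on NL-SFMA (2.45 to 2.68). Cyfip2, one of the subunits that take up the signal of Rac, was at 67.4 FPKM on NL-SFMA, 48.7 on N-SFMA, 46.9 on L-SFMA, against 27.8 on SFMA. It was 2.42 times higher on NL-SFMA (2.32 to 2.52), 1.75 times on N-SFMA (1.68 to 1.83) and 1.69 times on L-SFMA (1.62 to 1.76), and was the only member higher past 1.5-fold on N-SFMA and on L-SFMA.

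Abi1, Wasl and Wasf3 were the other genes of this class past 1.5-fold on NL-SFMA. Abi1, the relative of Abi2, was at 29.9 FPKM on NL-SFMA, 19.1 on N-SFMA, 23.2 on L-SFMA, against 16.8 on SFMA. Wasl, which encodes N-WASP, was at 14.1 FPKM on NL-SFMA, 9.25 on N-SFMA, 11.1 on L-SFMA, against 7.68 on SFMA. Wasf3, a form of the WAVE protein that contacts Arp2/3, was at 29.1 FPKM on NL-SFMA, 21.4 on N-SFMA, 22.9 on L-SFMA, against 17.6 on SFMA. All of them were lowest on SFMA and highest on NL-SFMA, while Wasf1, Wasf2 and Cyfip1 differed from SFMA by at most 1.32 times on NL-SFMA. Brk1, the shortest subunit of the complex, went against the rest. It was at 27.9 FPKM on NL-SFMA, 76.1 on N-SFMA, 61.9 on L-SFMA, against 96.9 on SFMA, 3.48 times lower on NL-SFMA (3.13 to 3.87). Its gene model of 1107 bases is the shortest among the members, whereas those of Nckap1, Abi2 and Cyfip2 have 5406, 5912 and 7332 bases.

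Among formins and Ena/VASP proteins, Enah passed 1.5-fold on NL-SFMA, and 0 of the 4 genes did so on N-SFMA or L-SFMA. The higher share on NL-SFMA was thus 25%, beside 21.6% of all genes tested. Enah, which encodes the Ena/VASP protein Mena, was at 27.9 FPKM on NL-SFMA, 21.8 on N-SFMA, 23.2 on L-SFMA, against 15.2 on SFMA, 1.84 times higher on NL-SFMA (1.74 to 1.94). Its relative Evl was instead lowest on NL-SFMA, at 78.8 FPKM on NL-SFMA, 125 on N-SFMA, 118 on L-SFMA, against 114 on SFMA, 1.45 times lower on NL-SFMA (1.39 to 1.50). Diaph1, a formin that lengthens unbranched filaments, was at 14.9 FPKM on NL-SFMA, 13.5 on N-SFMA, 14.1 on L-SFMA, against 9.79 on SFMA, with all modified hydrogels above SFMA. Diaph2, the least abundant member, had 78 reads on NL-SFMA, 43 on N-SFMA, 39 on L-SFMA, against 49 on SFMA. Its fold of 1.97 on NL-SFMA had the wide interval of 1.36 to 2.88. Capping protein, a dimer of an alpha and a beta subunit, passed 1.5-fold in none of the 3 libraries against SFMA. Capza1 was at 31.7 FPKM on NL-SFMA, 24.5 on N-SFMA, 20.6 on L-SFMA, against 21.6 on SFMA. Capza2 was at 82.8 FPKM on NL-SFMA, 54.7 on N-SFMA, 58.0 on L-SFMA, against 68.0 on SFMA. The gene of the beta subunit, Capzb, was at 47.5 FPKM on NL-SFMA, 52.1 on N-SFMA, 51.0 on L-SFMA, against 63.9 on SFMA. Both alpha genes were highest on NL-SFMA, where the beta gene was lowest.

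Of the 9 genes for proteins along or between filaments, 6 were lower on NL-SFMA, 4 on N-SFMA and 4 on L-SFMA, and 0 were higher. The lower shares were 66.7%, 44.4% and 44.4% in that order, beside 29.3%, 10.7% and 11.1% of all genes tested. With the length trend of all genes taken off, 3 were lower on NL-SFMA, 4 on N-SFMA and 4 on L-SFMA. These counts stand beside 18.9%, 6.78% and 7.46% of all genes tested. These genes showed different patterns. Cnn2, a calponin that lies along filaments, was at 7.13 FPKM on NL-SFMA, 7.12 on N-SFMA, 5.45 on L-SFMA, against 33.3 on SFMA. It was 4.67 times lower on NL-SFMA (4.00 to 5.49), 4.68 times on N-SFMA (4.02 to 5.47) and 6.12 times on L-SFMA (5.18 to 7.26). Tagln2, a transgelin, was at 2.28 FPKM on NL-SFMA, 3.22 on N-SFMA, 4.10 on L-SFMA, against 13.0 on SFMA, 5.72 times lower on NL-SFMA (4.38 to 7.57), 4.04 times on N-SFMA (3.24 to 5.09) and 3.17 times on L-SFMA (2.60 to 3.88). SFMA was thus far above the other libraries for both genes. Tpm4, a tropomyosin, was at 77.1 FPKM on NL-SFMA, 78.8 on N-SFMA, 75.0 on L-SFMA, against 132 on SFMA, and was lower on all 3 modified hydrogels by 1.68 to 1.76 times. Myl6, the essential light chain of non-muscle myosin II, was at 27.9 FPKM on NL-SFMA, 97.5 on N-SFMA, 92.7 on L-SFMA, against 187.5 on SFMA. It was 6.72 times lower on NL-SFMA (6.26 to 7.23), 1.92 times on N-SFMA (1.84 to 2.01) and 2.02 times on L-SFMA (1.94 to 2.11), with N-SFMA and L-SFMA near each other and between the ends.

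Tagln3, the transgelin known from neurons, was at 60.8 FPKM on NL-SFMA, 130.5 on N-SFMA, 111 on L-SFMA, against 128 on SFMA, so here NL-SFMA alone was low. It was 2.10 times lower there (1.97 to 2.24). Fscn1, fascin, which bundles the filaments of filopodia, was at 242 FPKM on NL-SFMA, 369 on N-SFMA, 347 on L-SFMA, against 381 on SFMA, 1.57 times lower on NL-SFMA. Its call on NL-SFMA was lost with TMM or DESeq2 scaling. Cnn3, Tpm1 and Tpm3 differed from SFMA by at most 1.48 times in these libraries.

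SRF with its MRTF cofactors is known to drive many actin genes through the CArG box, a short A/T-rich motif between CC and GG. It was searched by that name in RefSeq promoters of the GRCr8 rat assembly (250 bases before to 50 after the annotated start). The motif reads the same on both strands, so 1 search covers both. It was found in 2 of 46 promoters of members (4.35%), those of Actg1 and Cnn2, and in 548 of all 33469 promoters (1.64%). The 46 promoters belong to the 42 members with a promoter in the table. Both promoters are shown because they hold the motif, in capitals, beside genes with unlike values, since Cnn2 was lower on all 3 modified hydrogels and Actg1 was not past 1.5-fold on any. That of Cnn2 lies at chr7:10370263-10370562 on the minus strand, with the box 71 to 62 bases upstream of the start. That of Actg1 lies at chr10:106120902-106121201 on the minus strand, with the box 90 to 81 bases upstream. A match of letters is not a measured binding site.
Cnn2 promoter: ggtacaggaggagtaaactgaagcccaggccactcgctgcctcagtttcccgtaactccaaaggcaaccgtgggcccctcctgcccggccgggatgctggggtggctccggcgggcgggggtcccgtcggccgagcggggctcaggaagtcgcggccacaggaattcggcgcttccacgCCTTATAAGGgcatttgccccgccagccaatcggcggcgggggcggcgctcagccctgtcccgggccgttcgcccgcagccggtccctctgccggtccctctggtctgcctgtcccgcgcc
Actg1 promoter: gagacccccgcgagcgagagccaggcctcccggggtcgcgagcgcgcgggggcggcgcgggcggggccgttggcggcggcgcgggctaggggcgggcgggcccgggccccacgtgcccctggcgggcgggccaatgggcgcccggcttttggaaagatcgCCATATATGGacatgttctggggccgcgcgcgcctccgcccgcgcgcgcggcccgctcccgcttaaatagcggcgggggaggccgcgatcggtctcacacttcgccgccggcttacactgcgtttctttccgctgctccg

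The small actin-binding proteins were then set against the nucleation regulators with the length of the gene model taken into account. The small proteins were 9 genes (Pfn1, Pfn2, Cfl1, Cfl2, Dstn, Tmsb4x, Tmsb10, Tagln2 and Tagln3) with a median gene model of 1727 bases. The nucleation regulators were 12 genes (Wasf1, Wasf2, Wasf3, Wasl, Cyfip1, Cyfip2, Nckap1, Abi1, Abi2, Brk1, Diaph1 and Diaph2) with a median of 4557.5 bases. On NL-SFMA against SFMA, 6 of 9 small-protein genes were lower and 0 higher, and 6 of 12 nucleation genes were higher and 1 lower. The lower share of the small proteins was 66.7%, beside 29.3% of all genes tested. The higher share of the nucleation genes was 50%, beside 21.6%. The median log2 difference of the small proteins was -1.06 on NL-SFMA, -0.39 on N-SFMA and -0.59 on L-SFMA, each against SFMA. That of the nucleation regulators was 0.62 on NL-SFMA, 0.24 on N-SFMA and 0.40 on L-SFMA. The small proteins were therefore below the nucleation regulators by 1.68 on NL-SFMA, 0.63 on N-SFMA and 0.99 on L-SFMA, in log2 units.

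Long genes were higher and short genes lower throughout these libraries, not only among the members. Across all 12394 genes, the log2 difference from SFMA correlated with log2 gene model length with r = 0.50 on NL-SFMA, 0.46 on N-SFMA and 0.53 on L-SFMA. Across the 44 members, r was 0.67 on NL-SFMA, 0.54 on N-SFMA and 0.62 on L-SFMA. Genes are not independent replicates, and the 3 sets of differences share SFMA. Genes of all kinds with models of 1500 to 2000 bases had a median of -0.66 on NL-SFMA, and those of 4000 to 6000 bases a median of 0.34. The members in these ranges, 9 and 12 genes, had medians of -1.06 and 0.49.

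**Figure D2:**
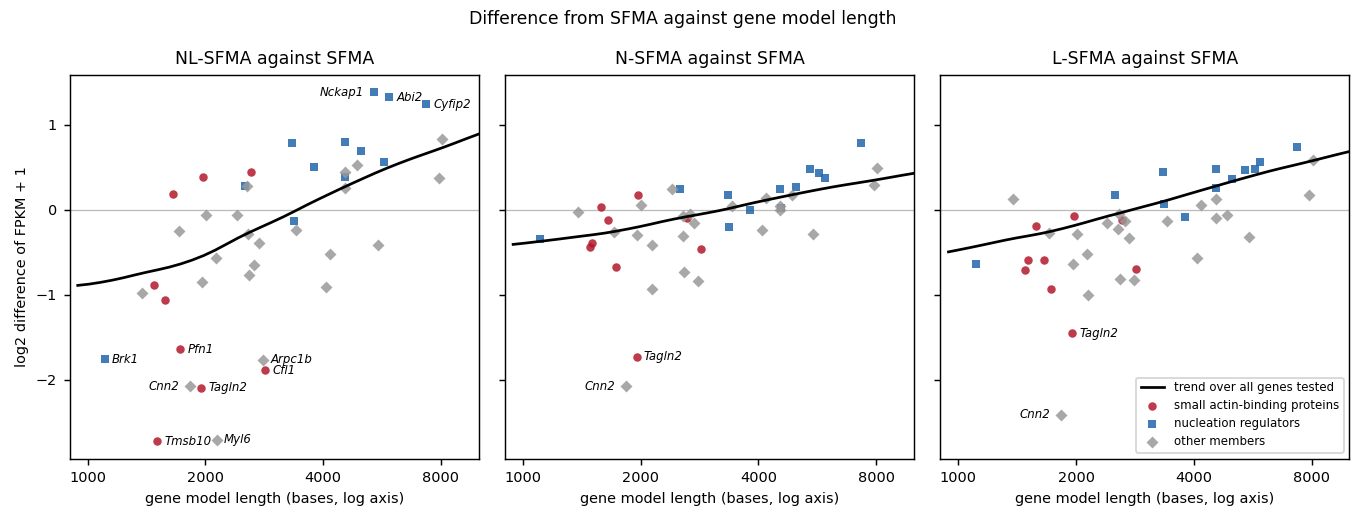
Log2 difference of FPKM + 1 from SFMA (vertical axis) against gene model length in bases (log axis) for the members on NL-SFMA, N-SFMA and L-SFMA, with small actin-binding proteins in red circles, nucleation regulators in blue squares, other members in grey diamonds, and the trend over all 12394 genes tested as a black line. The trend climbs over the range of the members' lengths in every panel, and on NL-SFMA Tmsb10, Myl6 and Cfl1 (-2.72, -2.71 and -1.89) lie well under it while Nckap1 (1.39) lies above it.

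With the trend of all genes with length taken off, the distance between both classes shrank and kept its sign. A correlation with log2 length remained across the 44 members, with r = 0.30 on NL-SFMA, 0.19 on N-SFMA and 0.20 on L-SFMA. The members' own relation to length was thus not fully removed. The small proteins had a median of -0.37 on NL-SFMA, -0.09 on N-SFMA and -0.31 on L-SFMA. The nucleation regulators had a median of 0.46 on NL-SFMA, 0.11 on N-SFMA and 0.08 on L-SFMA. The small proteins were then below the nucleation regulators by 0.84 on NL-SFMA, 0.20 on N-SFMA and 0.40 on L-SFMA. On NL-SFMA the small proteins then had members past 1.5-fold in both directions. Pfn2 (0.93), Dstn (0.85) and Cfl2 (0.70) were higher past 1.5-fold, and Tmsb10 (-2.01), Cfl1 (-1.71), Tagln2 (-1.54) and Pfn1 (-1.01) were lower, while Tagln3 (-0.37) and Tmsb4x (-0.17) were past it in neither direction. Of the nucleation regulators, Nckap1 (0.96), Abi1 (0.82) and Abi2 (0.82) were higher and Brk1 (-0.92) lower. Cyfip2 (0.58), Wasl (0.53) and Wasf3 (0.34) were no longer past 1.5-fold, and Enah, with 8062 bases the longest member, was at 0.11 in place of 0.84.

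**Figure D3:**
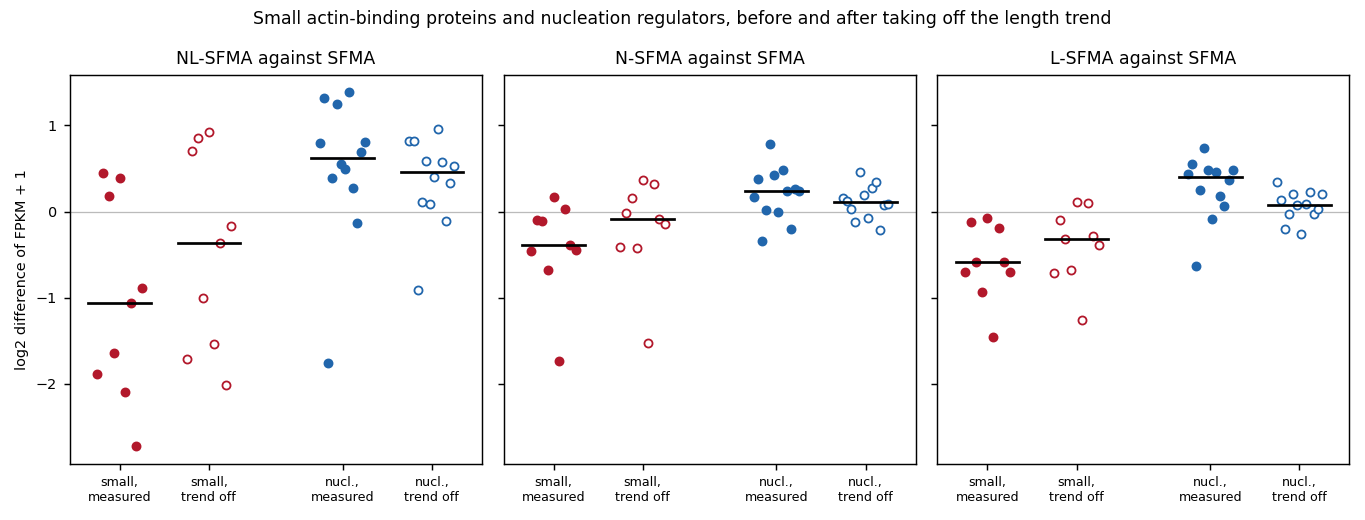
Log2 difference from SFMA of the 9 small actin-binding proteins (red) and the 12 nucleation regulators (blue, "nucl.") on NL-SFMA, N-SFMA and L-SFMA, as measured (filled) and with the length trend taken off (open). Points are genes and bars are medians, which on NL-SFMA stand at -1.06 and 0.62 as measured and at -0.37 and 0.46 with the trend off.

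Over the whole set, the members' differences from SFMA with the length trend taken off had a median of -0.05 on NL-SFMA, -0.01 on N-SFMA and -0.18 on L-SFMA. On NL-SFMA, 6 members were then higher and 11 lower, beside 19.1% and 18.9% of all genes tested. The 9 members lower in both ways of measuring were Pfn1, Cfl1, Tmsb10, Arpc1b, Arpc4, Brk1, Cnn2, Tagln2 and Myl6. On N-SFMA 0 members were higher and 5 lower (5.79% and 6.78% of all genes tested), and on L-SFMA 0 were higher and 9 lower (8.12% and 7.46% of all genes tested). Arpc4, with a gene model of 4079 bases, lay farther from the trend than from SFMA itself on NL-SFMA (-1.08 beside -0.91) and on L-SFMA (-0.79 beside -0.57). Capzb, with 5527 bases, likewise stood at -0.87 on NL-SFMA with the trend off, beside -0.42 as measured, and Evl, with 4175 bases, at -0.72 beside -0.53.

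Ratios between related members were taken within each library, where the scaling of the library cancels. The 16 pairs were chosen after the values had been seen, so the ratios are a description. Pfn2 per Pfn1 was 4.80 on NL-SFMA, 2.09 on N-SFMA, 2.11 on L-SFMA, against 1.16 on SFMA, a ratio 4.14 times that on SFMA for NL-SFMA (3.86 to 4.44, a Wald interval for counting error), 1.80 times for N-SFMA and 1.82 times for L-SFMA. The gene models of this pair differ by few bases (1971 and 1727), and the length trend differed by 0.10 (log2) between them on NL-SFMA. Cfl2 per Cfl1 was 0.578 on NL-SFMA, 0.146 on N-SFMA, 0.170 on L-SFMA, against 0.114 on SFMA, 5.08 times the SFMA ratio on NL-SFMA (4.86 to 5.31). Dstn per Cfl1 was 1.10 on NL-SFMA, 0.328 on N-SFMA, 0.280 on L-SFMA, against 0.259 on SFMA, so Dstn exceeded Cfl1 per length only on NL-SFMA.

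Tmsb10 per Tmsb4x was 0.214 on NL-SFMA, 0.796 on N-SFMA, 0.830 on L-SFMA, against 0.767 on SFMA, with NL-SFMA at 0.279 times the SFMA ratio (0.270 to 0.288) and the other libraries close together. These genes have models of nearly the same length (1505 and 1481 bases). Arpc1b per Arpc1a was 0.0343 on NL-SFMA, 0.0635 on N-SFMA, 0.0731 on L-SFMA, against 0.109 on SFMA. Cyfip2 per Cyfip1 was 2.14 on NL-SFMA, 2.01 on N-SFMA, 1.64 on L-SFMA, against 1.17 on SFMA, and Abi2 per Abi1 was 2.22 on NL-SFMA, 1.77 on N-SFMA, 1.66 on L-SFMA, against 1.54 on SFMA. In all 3 of these pairs NL-SFMA and SFMA were at the ends of the range. Pairs of unequal length carry the length trend: on NL-SFMA the log2 change of Abi2 per Abi1 was 0.53 and the trend between their lengths also 0.53, and for Cyfip2 per Cyfip1 the values were 0.87 and 0.39. Evl per Enah was 2.83 on NL-SFMA, 5.76 on N-SFMA, 5.10 on L-SFMA, against 7.51 on SFMA. Its log2 change on NL-SFMA was -1.41, with -0.54 for the trend between both lengths. For Dstn per Cfl1 (2.08 and -0.48) the trend ran opposite to the change, and for Wasf3 per Wasf1 (0.44 and 0.65) and Capza2 per Capza1 (-0.27 and -0.61) it exceeded it. For Cnn2 per Cnn3 (0.0303 on NL-SFMA, 0.0273 on N-SFMA, 0.0224 on L-SFMA, 0.0955 on SFMA) and Tpm4 per Tpm3 (0.708 on NL-SFMA, 0.593 on N-SFMA, 0.639 on L-SFMA, 1.02 on SFMA), SFMA stood apart and the modified hydrogels were close together. Tagln2 per Tagln3 was likewise 0.0374 on NL-SFMA, 0.0247 on N-SFMA, 0.0369 on L-SFMA, against 0.102 on SFMA.

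**Figure D4:**
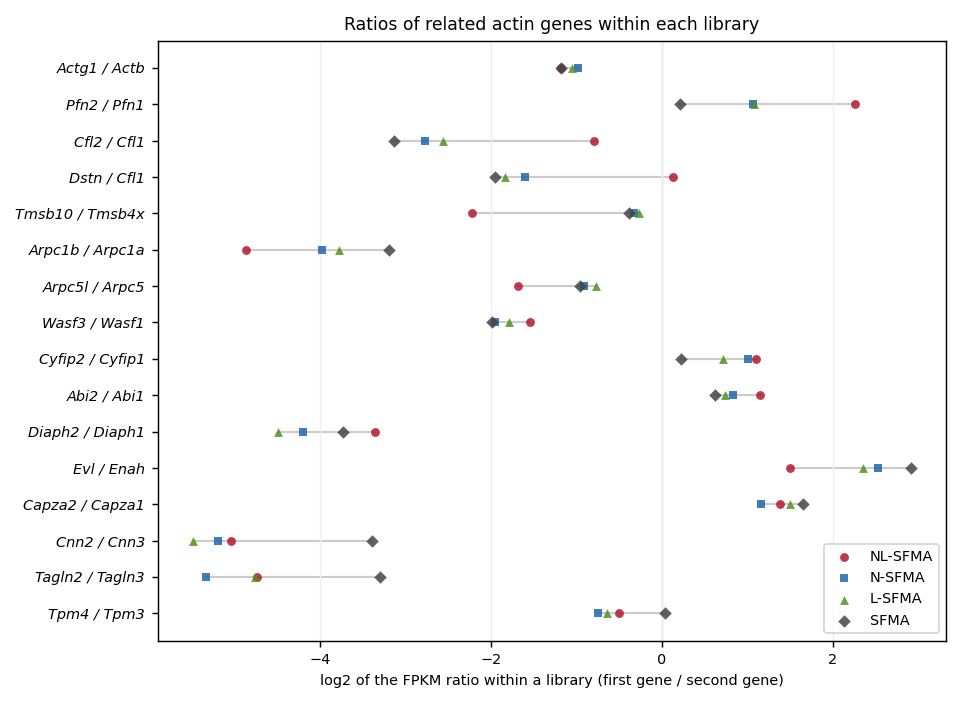
Log2 of the FPKM ratio of 16 pairs of related members within each library, on NL-SFMA (red circles), N-SFMA (blue squares), L-SFMA (green triangles) and SFMA (grey diamonds), with a grey line over the range. NL-SFMA stands apart for Pfn2 per Pfn1, Cfl2 per Cfl1, Dstn per Cfl1 and Tmsb10 per Tmsb4x (ratios of 4.80, 0.578, 1.10 and 0.214), and SFMA for Cnn2 per Cnn3 and Tagln2 per Tagln3 (0.0955 and 0.102).

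NL-SFMA carries both letters of the other modified hydrogels and was also compared with each of them. Against N-SFMA, 4 members were higher on NL-SFMA (Nckap1, Abi1, Abi2 and Capza2) and 11 lower, beside 12.5% and 18% of all genes tested. Against L-SFMA, 5 were higher (Dstn, Nckap1, Abi2, Diaph2 and Capza1) and 9 lower, beside 7.23% and 20.9% of all genes tested. Of these, Diaph2 was tested only through its NL-SFMA value, and its call was lost with a pseudocount of 5 FPKM. With a filter at 5 FPKM, 4 members were higher against L-SFMA. Past 2-fold, 0 members were higher and 5 lower in each of both comparisons, beside 2.15% and 5.58% of all genes tested against N-SFMA and 0.871% and 6.87% against L-SFMA. Tmsb10 was 5.07 times lower on NL-SFMA than on N-SFMA and 4.40 times lower than on L-SFMA. Myl6 was 3.49 times lower than on N-SFMA and 3.32 times lower than on L-SFMA, and Cfl1 was 2.71 times lower than on N-SFMA and 2.28 times lower than on L-SFMA. Nckap1 was 1.88 times higher on NL-SFMA than on N-SFMA and 1.91 times higher than on L-SFMA. The medians of the members were near 0, at -0.01 against N-SFMA and 0.06 against L-SFMA, beside -0.06 and -0.13 for all genes tested. The split against L-SFMA depended on the scaling and was 10 higher and 8 lower with TMM and 10 higher and 7 lower with DESeq2 size factors. That against N-SFMA was 6 higher and 10 lower with DESeq2 size factors.

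The log2 difference of NL-SFMA was also set beside the sum of the differences of N-SFMA and L-SFMA, all from the same SFMA library. NL-SFMA was above that sum past 1.5-fold for 7 members and below it for 7, beside 8.86% and 18.7% of all genes tested. Above it were Cnn2 (2.41), Tagln2 (1.09), Dstn (0.89), Capza2 (0.81), Tpm4 (0.78), Cfl2 (0.67) and Diaph2 (0.59), in log2 units. Of these, Cnn2, Tagln2 and Tpm4 were called lower than SFMA on all modified hydrogels, and the others had NL-SFMA as their highest library. Diaph2 was tested only through its NL-SFMA value, so its place above the sum adds no support. The departure of Tmsb10 was -1.74, and Tagln3 (-0.89), Brk1 (-0.78), Myl6 (-0.76), Cfl1 (-0.73) and Evl (-0.72) were also below the sum. The departure of Arpc5l was -1.08, with the uncertainty of its pseudogene reads. These departures have no test, since a fit with an interaction leaves no residual degrees of freedom in 4 libraries.

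Genes of actin biology outside the set were looked at as lists. Of 100 genes listed, 97 were found on a single row and 86 tested, of which 21 were higher and 22 lower on NL-SFMA, 7 higher and 3 lower on N-SFMA, and 17 higher and 4 lower on L-SFMA. These shares are 24.4% and 25.6% on NL-SFMA, beside 21.6% and 29.3% of all genes tested, 8.14% and 3.49% on N-SFMA, beside 7.24% and 10.7%, and 19.8% and 4.65% on L-SFMA, beside 14.8% and 11.1%. The counts of the single lists on NL-SFMA rest on few genes and are to be read beside the same 21.6% and 29.3%. Among the other formins (9 tested), 3 were higher and 1 lower on NL-SFMA. With the length trend off, 1 was higher and 3 were lower, beside 19.1% and 18.9% of all genes tested, and their median was -0.32 in place of 0.15. Fmnl2 was at 37.1 FPKM on NL-SFMA, 22.4 on N-SFMA, 26.6 on L-SFMA, against 12.2 on SFMA, and stayed past 1.5-fold with the length trend off (1.03). Among the other nucleators and Arp2/3 regulators (17 tested), 6 were higher and 6 lower on NL-SFMA. Jmy, an Arp2/3 activator, was at 13.3 FPKM on NL-SFMA, 8.84 on N-SFMA, 11.5 on L-SFMA, against 5.52 on SFMA. In log2 units its difference on NL-SFMA was 1.13, while Gmfg (-2.03) and Spire2 (-1.22) of the same list were lower there.

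Of 21 other genes of monomer recycling and severing, 3 were higher and 6 lower on NL-SFMA. Ssh2, a phosphatase that activates cofilin, was at 17.2 FPKM on NL-SFMA, 10.6 on N-SFMA, 11.0 on L-SFMA, against 4.59 on SFMA. Coro1b, a coronin, was at 48.9 FPKM on NL-SFMA, 81.8 on N-SFMA, 88.8 on L-SFMA, against 108 on SFMA. Ssh2 was highest and Cfl1 lowest on NL-SFMA, and a link between them was not tested. Of 15 other crosslinkers and side binders, 5 were lower and 0 higher. Vasp, the namesake of the Ena/VASP proteins, was at 4.50 FPKM on NL-SFMA, 11.3 on N-SFMA, 13.1 on L-SFMA, against 16.6 on SFMA, on the side of Evl and opposite to Enah. Among 7 other genes of tropomyosins, tropomodulins and myosin II, 1 was higher and 2 lower. Myh10, a myosin II heavy chain gene, was at 70.5 FPKM on NL-SFMA, 66.6 on N-SFMA, 70.8 on L-SFMA, against 35.0 on SFMA. Myl12b, a light chain gene, was at 53.8 on NL-SFMA, 124 on N-SFMA, 114 on L-SFMA, against 138 on SFMA. Myh10 and Myl12b thus differed in opposite directions on NL-SFMA, as the long and short genes of the set did. Of the 7 genes, only Myh10 and Tmod2 were above SFMA there, so any other heavy chain gene tested was not. With the length trend off, Myh10 was at 0.28 and Myl12b at -1.08 in log2 units. Of 14 tested SRF and MRTF targets outside the set, some of which also stand in the other lists, 6 were lower on NL-SFMA, 5 on N-SFMA and 5 on L-SFMA, and 0 were higher. As shares, 42.9% were lower on NL-SFMA, 35.7% on N-SFMA and 35.7% on L-SFMA, beside 29.3%, 10.7% and 11.1% of all genes tested.

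Markers of cell types moved with some of these genes. The FPKM of 9 neuron markers summed to 2709 on NL-SFMA, 3565 on N-SFMA, 2838 on L-SFMA, against 2613 on SFMA, so neuronal RNA was abundant in every library. Of these markers, 3 were higher on NL-SFMA, 4 on N-SFMA and 4 on L-SFMA, and 0 were lower. The higher shares were 33.3%, 44.4% and 44.4% in that order, beside 21.6%, 7.24% and 14.8% of all genes tested. The 10 radial glia markers summed to 772 on NL-SFMA, 701 on N-SFMA, 694 on L-SFMA, against 1560 on SFMA. Of them, 8 were lower on NL-SFMA, 8 on N-SFMA and 4 on L-SFMA, and 1 was higher on L-SFMA. The lower shares were 80%, 80% and 40% in that order, beside 29.3%, 10.7% and 11.1% of all genes tested. Like the radial glia sum, Cnn2, Tagln2 and Tpm4 had SFMA apart from the other libraries. The 7 erythroid markers found of 8 summed to 70.7 on NL-SFMA, 164 on N-SFMA, 92.0 on L-SFMA, against 552 on SFMA. The 11 mural and fibroblast markers summed to 24.5 on NL-SFMA, 22.8 on N-SFMA, 33.8 on L-SFMA, against 43.7 on SFMA, with 3 tested and Dcn and Lum at 0 in some library. The 8 microglia markers found of 9 summed to 5.83 on NL-SFMA, 7.73 on N-SFMA, 15.3 on L-SFMA, against 21.8 on SFMA, with 3 tested and P2ry12, C1qa and C1qc at 0 in some library. The 7 astrocyte markers summed to 46.3 on NL-SFMA, 73.3 on N-SFMA, 90.9 on L-SFMA, against 122 on SFMA, and the 7 endothelial markers found of 8 to 1.33 on NL-SFMA, 0.591 on N-SFMA, 0.894 on L-SFMA, against 1.28 on SFMA, with 0 tested and Cdh5 at 0 in some library. The part of these cell types, of the mitochondrial share or of the read-weighted length in the differences of single members was not tested.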

How the data were processed

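For each of 4 libraries of poly(A) RNA (1.5 µg input, NEBNext Ultra kit, per the labels' protocols) the authors deposited a read count and an FPKM per gene. Counts were made with HISAT2 and HTSeq 0.13.5, per the submitters' processing notes, which name a human build (GRCh38) and a rat build (mRatBN7.2) with no role for either. The strand setting of the counting is not stated in them or in the labels. The deposited FPKM is the count over gene model length and summed count, checked by recovering whole lengths within 1e-06 bases.

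Log2 ratios used a pseudocount of 1 FPKM. Single-gene folds are ratios of count over summed count with exact conditional (Clopper-Pearson) 95% intervals (scipy 1.17.1). Reads were not collapsed by molecular identifiers, as far as the labels say, so they are not independent molecules and intervals cover counting error only. The length trend was a lowess over all genes tested (fraction 0.3, statsmodels 0.14.6). TMM factors came from edgeR 4.0.16 and size factors from DESeq2 1.42.0, with no count test. The code was tested on simulated data. Members, pairs and lists were chosen with earlier results of these data known. Members given in all 4 libraries were both actins and up to 4 per role with the largest difference from SFMA, and others needed for a comparison were chosen after their values were seen. Genes outside the set were up to 2 each way per list with an FPKM of at least 5. Promoters came from the RefSeq table of GRCr8, which held 42 of 44 members, without Actb and Arpc1a. Of the lists of other actin genes, 1 is included in the total over all such genes and is not reported here on its own.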

Additional observations from a re-analysis of the deposited data

How the results depend on the processing

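No paired analysis was possible because each hydrogel has 1 library. No setting reversed the difference between small proteins and nucleation regulators, but several could hardly change it. Other scalings of the libraries shift both medians nearly alike. Dropping the filter leaves all members in place, and pseudogene reads touch only Tmsb10 in these classes. In log2 units the difference as measured was -1.68 on NL-SFMA, -0.63 on N-SFMA and -0.99 on L-SFMA, each against SFMA. With the length trend taken off it was -0.84 on NL-SFMA, -0.20 on N-SFMA and -0.40 on L-SFMA, where the setting itself takes away the part that follows the trend of all genes. With a pseudocount of 0.1 FPKM it was -1.84 on NL-SFMA, and with 5 FPKM -1.52 on NL-SFMA and -0.91 on L-SFMA. Members past 2-fold in place of 1.5-fold numbered 12 in place of 22 on NL-SFMA against SFMA, 2 in place of 7 on N-SFMA against SFMA, and 3 in place of 13 on L-SFMA against SFMA. They numbered 5 in place of 15 on NL-SFMA against N-SFMA and 5 in place of 14 on NL-SFMA against L-SFMA. Calls kept in each of 9 settings were 12 of 22 on NL-SFMA, 5 of 7 on N-SFMA and 7 of 13 on L-SFMA, each against SFMA. Without mitochondrially encoded genes in the summed count, NL-SFMA had 6 higher and 10 lower members against N-SFMA, and 7 higher and 9 lower against L-SFMA. DESeq2 size factors moved the median of all genes on NL-SFMA against L-SFMA to 0.02, from -0.13. A filter at 5 FPKM removed Diaph2. Depth limits Diaph2 most, with 39 to 78 reads per library.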

Other observations

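Rows named as pseudogenes of members enter no comparison of the set. Arpc5l-ps1 had 104 reads on NL-SFMA, 99 on N-SFMA, 52 on L-SFMA, against 470 on SFMA, so most of its reads were on SFMA. Tmsb10-ps6, with a gene model of 135 bases, had 24 reads on NL-SFMA, 164 on N-SFMA, 127 on L-SFMA, against 206 on SFMA. Adding these reads to Tmsb10 left its log2 difference on NL-SFMA at -2.72.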
